A study of Homo sapiens with 26 samples.

Results

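The 39 genes described here encode the chaperones, folding enzymes and degradation machinery of the endoplasmic reticulum (ER). They were chosen by name for the known function of their products and not by any measured value, out of 60663 genes in the RNA-seq tables. Of these, 31 encode proteins of the ER lumen and 8 encode proteins of the ER membrane (CANX, MOGS, SEL1L, SYVN1, DERL1, DERL2, EDEM1 and HERPUD1). By role, 12 belong to the HSP70 and HSP90 system, 11 are disulfide or prolyl isomerases and oxidases, 7 are lectins or trim glycans, and 9 act in ER-associated degradation (ERAD).

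Proteins that enter the secretory pathway are mostly made by ribosomes docked on the Sec61 channel of the ER, where a hydrophobic signal peptide at the N terminus directs the nascent chain through the membrane. In the lumen, HSPA5 (BiP) and HSP90B1 bind unfolded segments, protein disulfide isomerases form and shuffle disulfide bonds with oxidation power from ERO1A and ERO1B, and the lectins CALR and CANX hold glycoproteins whose sugars are trimmed by MOGS and glucosidase II (GANAB and PRKCSH) and reset by UGGT1. Chains that fail to fold are recognised by OS9, ERLEC1 and the EDEM proteins and pass through the SEL1L-SYVN1 ligase complex to the proteasome. Many of these genes are induced together by the unfolded protein response.

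The study used proximity ribosome profiling in HEK293T, a human embryonic kidney line. All lines carried an Avi tag knocked in at the endogenous RPL29 locus, in cells isolated as monoclonal lines, so that a biotin ligase switched on by blue light (LOV-BirA) marks the ribosomes near it. In 3 polyclonal lentiviral lines the ligase was fused to Sec61β (ER line, SFFV promoter), to the transmembrane domain of OMP25 at the outer mitochondrial membrane (OMM; mito line, EF1α promoter) or was left free (cytosol line, EF1α promoter). Every lysate gave a total input and a streptavidin pulldown, with 2 replicates for each location, from cells treated with cycloheximide (CHX), an inhibitor of translation elongation. RNA-seq of whole transcripts was made with the OMM ligase from wild-type cells (negative control guide RNA), AKAP1 null cells and LARP4 null cells. Each null was 1 monoclonal line, made by the methods with a guide RNA in Cas9-expressing cells. Each genotype again had 2 replicates of total and pulldown. There was also 1 lysate made without CHX, which enters no test and whose title gives no genotype or guide RNA. The labels do not say whether replicates came from separate cultures, so p-values cover the spread between these samples, which may be technical. Bulk libraries cannot tell fewer docked ribosomes on every transcript from fewer docked transcripts.

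The 12 ribosome profiling libraries held 1025114 (mito pulldown, replicate 1) to 19539527 coding footprints (ER pulldown, replicate 1), and the 14 RNA-seq libraries 38347615 to 100840544 counted reads. The targeted transcripts were lower but present in the null lines: AKAP1 was at 15.1 and 23.3 TPM (transcript abundance scaled by length and library total) in AKAP1 null total inputs against 85.8 and 86.7 in wild type, and LARP4 was at 37.4 and 38.2 TPM in LARP4 null against 110 and 111. Of the HEK293T markers listed, VIM (326 to 526 TPM), KRT18 (52.4 to 70.6), NEFL (66.4 to 130) and NEFM (27.9 to 52.0) were present in every RNA-seq total input. KRT8, also listed, was lower, at 2.27 to 11.3 TPM. ALB, PTPRC, CD3E, CDH5 and DES, which mark other cell types, stayed at or below 0.323 TPM.

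In ribosome profiling 35 of the 39 genes had an entry of their own. DNAJB11, TXNDC5, CNPY2 and FKBP2 appeared only in entries shared with neighbouring genes and have no footprint value here. The deposited coding-sequence counts skip positions that are not unique to 1 gene or shared by its transcripts, and for 16 genes under 50% of the canonical coding length was counted: 14% for HSP90B1, 17.7% for CANX, 9.57% for PDIA3 and 0.106% for GANAB, which had no counted footprint at all. Footprints over all exons, which the same files hold, covered these genes more fully, and both counts are given for the members whose description turns on them. Counts over all exons were added as an alternative after the coding counts had been seen.

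Most members carried the sequence features of ER proteins. A stretch of 10 residues with mean Kyte-Doolittle hydropathy of at least 1.6 lay within the first 30 residues of 36 of the 39 proteins, against 30.05% of 19548 proteins in the annotation. The exceptions were the membrane proteins MOGS (0.31), HERPUD1 (0.44) and DERL2 (1.31), and the other 36 ranged from 1.8 (UGGT2) to 3.36 (DNAJB9). A KDEL-type retrieval signal, searched as a last residue triplet of aspartate or glutamate, then glutamate, then leucine, closed 17 of the 31 lumenal and 0 of the 8 membrane proteins, against 0.353% of the annotated proteins.

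Some of the promoters held a known element. The ER stress response element, through which ATF6 and NF-Y act in the unfolded protein response, was searched as CCAAT, 9 bases of any kind and CCACG on both strands, from 250 bases before to 50 after each RefSeq start site (GRCh38.p14). It was present in 7 of 36 members with a promoter entry (19.4%) and in 25 of all 27305 genes with one (0.0916%). The sites are shown because they are the matches in those 7 genes, with the fixed ends of the element in capitals; each is written 5′ to 3′ on the strand where it was found.

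HSPA5, chr9:125241391-125241409, gene on the minus strand, element on the strand of the gene: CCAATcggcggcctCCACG
HSP90B1, chr12:103930216-103930234, gene on the plus strand, element on the strand of the gene: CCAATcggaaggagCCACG
HSP90B1, chr12:103930321-103930339, element on the opposite strand: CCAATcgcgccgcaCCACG
PDIA6, chr2:10812853-10812871, gene on the minus strand, element on the strand of the gene: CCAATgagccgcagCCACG
CALR, chr19:12938384-12938402, gene on the plus strand, element on the opposite strand: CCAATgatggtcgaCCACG
CANX, chr5:179698778-179698796, gene on the plus strand, element on the strand of the gene: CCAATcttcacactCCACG
CRELD2, chr22:49918554-49918572, gene on the plus strand, element on the opposite strand: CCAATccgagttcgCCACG
ERO1B, chr1:236282183-236282201, gene on the minus strand, element on the opposite strand: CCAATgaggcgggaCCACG

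In HSPA5 the element lay 66 bases before the start site, and in HSP90B1 the 2 copies lay 194 and 89 bases before it. A match is a description of the letters and not a measured binding site, and PDIA3, MOGS and DERL1 had no promoter entry.

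At the ER, every member that could be tested was enriched in the pulldown. All 32 members with at least 64 coding footprints in both ER total inputs were higher in the pulldown than in the total input, by 0.61 to 2.49 on the log2 scale with a median of 2.04, whereas 19.9% of 7390 genes tested were called higher and 72.0% lower (edgeR quasi-likelihood test with the lysate as a block, Benjamini-Hochberg adjusted p below 0.05, scaled by library totals). Over all exons 35 of 35 members were higher, by 0.86 to 2.5 with a median of 2.16, against a background of 20.9%. The median of all genes lay at −0.68 on this scale and at −0.03 after trimmed-mean (TMM) scaling, which moved the called shares of all genes to 29.2% higher and 25.4% lower and left all 32 members higher. Members of this set took 5.38% (95% Wilson interval 5.37 to 5.39) and 4.41% (4.40 to 4.42) of the coding footprints in the ER pulldowns, against 1.09% to 1.34% in the 6 total inputs, intervals that cover counting error only.

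**Figure D1:**
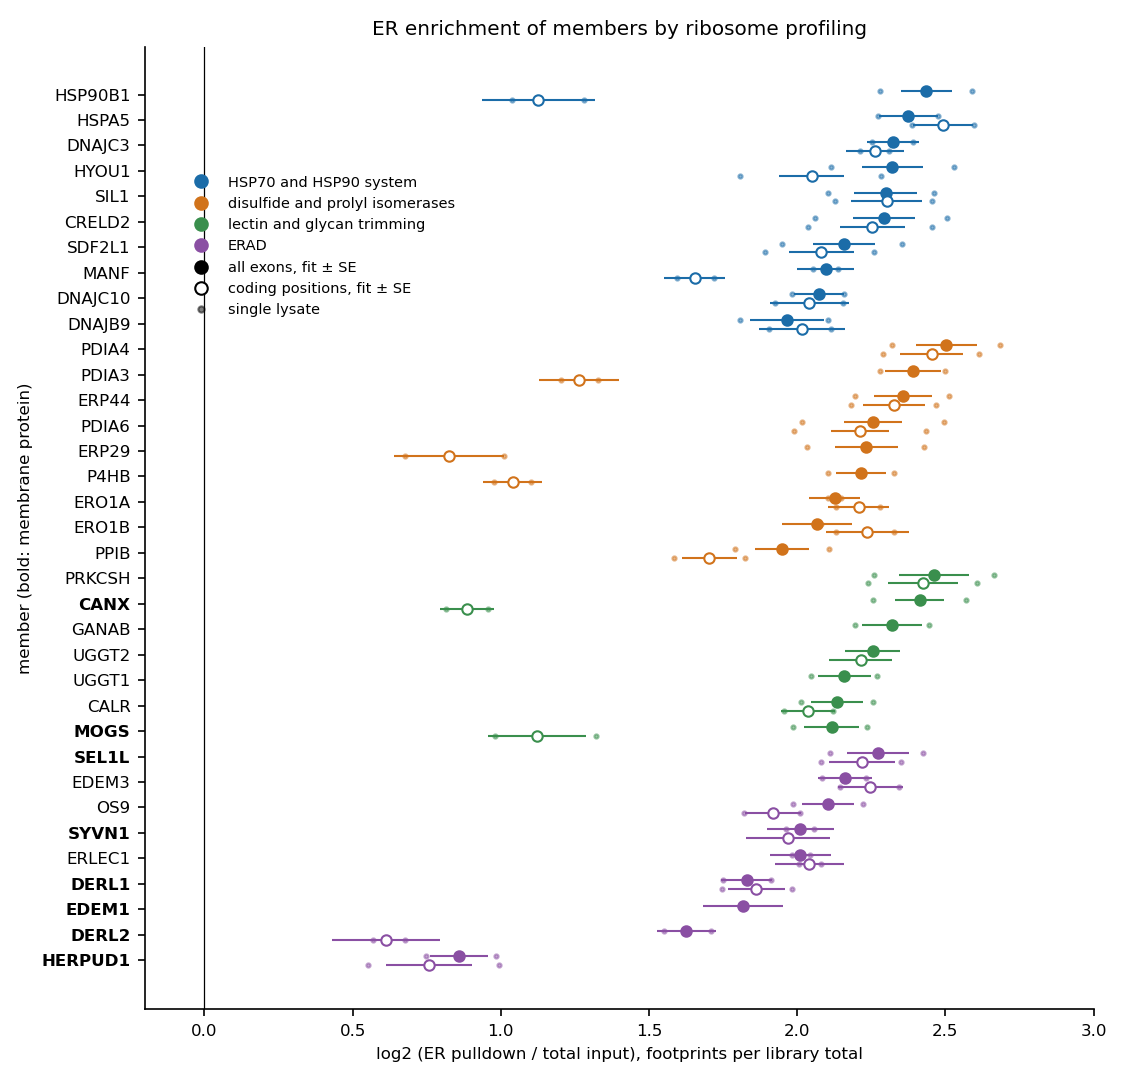
Log2 ratio of ER pulldown to total input (x axis) for each member (y axis, membrane proteins in bold), by role (colour); large points are fits with standard errors, over coding positions (open) or all exons (filled), and small points are the 2 lysates. Over all exons 34 of 35 members lie above 1.6, with HERPUD1 apart at 0.86, and the open points of HSP90B1, PDIA3, ERP29, P4HB, CANX, MOGS and DERL2 lie well to the left of their filled ones.

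Among the chaperones of the HSP70 and HSP90 system, 10 of 10 tested members were higher, with a median of 2.06. HSPA5, the abundant HSP70 of the lumen, had the highest coding enrichment of all members, with log2 values of 2.60 and 2.39 in the 2 lysates and a fit of 2.49 ± 0.10 (SE, n = 2 lysates, adjusted p = 3.2e-12 in edgeR); 99.7% of genes tested lay below it. HSP90B1, the HSP90 paralog of the lumen, measured 1.04 and 1.28 over its few counted coding positions (fit 1.13 ± 0.19, adjusted p = 2.8e-05 in edgeR) and 2.59 and 2.28 over all exons (2.44 ± 0.09). Its coding value thus lay among the lowest of the set and its exon value among the highest. The J-domain cochaperones DNAJC3, DNAJC10 and DNAJB9, the nucleotide exchange factors HYOU1 and SIL1, and SDF2L1, MANF and CRELD2 lay between 1.65 (MANF) and 2.30 (SIL1), and MANF was at 2.10 over all exons.

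Their cytosolic relatives lay far below them at the same site. HSPA8, the constitutive cytosolic HSP70, was at −1.23 ± 0.08 and was called lower under both scales, at −0.59 after TMM scaling. HSP90AB1, at −0.69 ± 0.08, and HSPBP1, a nucleotide exchange factor, at −0.75, were called lower by library totals and were at −0.05 and −0.10, not called, after TMM scaling. PPIA, the cytosolic cyclophilin, was at −0.18, not called, and at 0.47, called higher, after TMM scaling. Of 16 tested cytosolic chaperones and isomerases 0 were higher and 15 lower at the ER (median −0.89), against 1 higher and 7 lower after TMM scaling (median −0.24). Of 6 mitochondrial chaperones 0 were higher and 5 lower (median −0.85), against 1 higher and 2 lower after TMM scaling (−0.20). Of all genes tested 72.0% were lower (median −0.68), or 25.4% after TMM scaling (−0.03), so most genes moved the same way by library totals.

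The isomerases and oxidases were all higher as well, 9 of 9 with a median of 2.21. PDIA4 had the second highest coding value (lysates 2.61 and 2.29, fit 2.45 ± 0.11). P4HB, the founding protein disulfide isomerase, measured 1.10 and 0.98 over coding positions (1.04 ± 0.10) and 2.33 and 2.10 over all exons (2.22 ± 0.08). PDIA3, the isomerase that works with the lectins CALR and CANX, went from 1.26 ± 0.13 to 2.39 ± 0.09. ERP29, a redox-inactive relative, had the third lowest coding value at 0.68 and 1.01 (0.82 ± 0.19), with only 18.0% of its coding length counted, and reached 2.23 ± 0.11 over all exons. PPIB, the lumenal cyclophilin, was the lowest lumenal member over all exons at 2.11 and 1.79 (1.95 ± 0.09), still far above its cytosolic relative PPIA at −0.25.

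For lectins and glycan trimming, 5 of 5 members tested over coding positions and 7 of 7 over all exons were higher, with medians of 2.04 and 2.25. CALR, the soluble lectin, measured 2.12 and 1.95 (2.04 ± 0.09), and CANX, its membrane-anchored relative, measured 0.81 and 0.96 (0.89 ± 0.09) over coding positions. Over all exons the order was the other way round, a difference that was not tested: CALR was at 2.13 ± 0.09 and CANX at 2.41 ± 0.08 (lysates 2.57 and 2.25). PRKCSH, the regulatory subunit of glucosidase II, was the third highest by coding positions at 2.42 ± 0.12, and its catalytic partner GANAB, measurable over all exons only, was at 2.32 (lysates 2.45 and 2.19). MOGS, glucosidase I, rose from 1.12 ± 0.16 over coding positions to 2.12 ± 0.09 over all exons.

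The ERAD members were the least uniform. All 8 tested over coding positions and all 9 over all exons were higher, with medians of 1.94 and 2.01, and the lumenal lectins and mannosidases EDEM3, OS9 and ERLEC1 lay between 2.01 and 2.16 over all exons. SEL1L, the adaptor of the ligase complex, was at 2.27 ± 0.10 and SYVN1, the ligase itself, at 2.01. The derlins, multi-pass proteins of the retrotranslocation channel, were lower: DERL1 measured 1.75 and 1.91 (fit 1.83) and DERL2 1.55 and 1.71 (1.63 ± 0.10, against 0.61 ± 0.18 over coding positions). EDEM1 was at 1.82 ± 0.13 in the exon fit.

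HERPUD1 stood below the rest over all exons, while over coding positions DERL2 (0.61) was lower still. This stress-induced ERAD scaffold carries a ubiquitin-like domain at its N terminus and is anchored by a hairpin near its C terminus. Its log2 values were 0.55 and 0.99 over coding positions (0.76 ± 0.14, adjusted p = 8.9e-05 in edgeR) and 0.75 and 0.98 over all exons (0.86 ± 0.10, adjusted p = 2.8e-07 in edgeR). Both lysates lay below those of every other member over all exons, the next lowest being 1.55 for DERL2, and 82.1% of all genes tested lay below its coding value.

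Lumenal and membrane members both rose, and the lumenal ones had the higher median. Over all exons the 27 lumenal members spanned 1.95 to 2.5 (median 2.23) and the 8 membrane members 0.86 to 2.41 (median 1.92), so that DERL1, EDEM1, DERL2 and HERPUD1 lay below every lumenal member while CANX and SEL1L lay above the lumenal median. Over coding positions the medians were 2.08 (25 genes) and 1.12 (7 genes), a wider gap. That gap went with how much of a gene was counted: the 13 members with under 50% of their coding length counted had a median of 1.13 over coding positions and 2.22 over all exons, and the 19 with more had 2.21 and 2.16. These groups of genes are not replicates and no test was made between them.

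**Figure D2:**
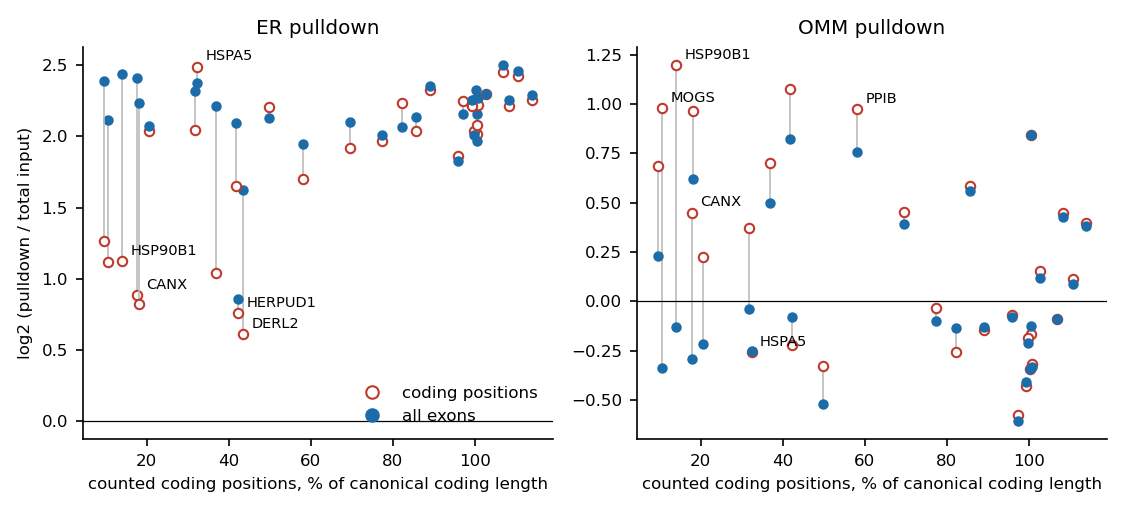
Log2 ratio of pulldown to total input (y axis) at the ER (left) and OMM (right) against the share of each member's canonical coding length that was counted (x axis, percent); a line joins the value over coding positions (open) to that over all exons (filled) of the same gene. Below 50% counted the ER values over coding positions fall as low as 0.61 and most OMM values over coding positions lie above their exon values, while above 50% the points nearly coincide.

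Other genes of the same pathways, listed by function, gave a similar split. Of 43 further ER folding and ERAD genes, 35 could be tested over coding positions and 32 were higher and 1 lower at the ER (median 1.84), against 34 higher and 0 lower after TMM scaling. The gene called lower was UBE2J1, a tail-anchored ubiquitin-conjugating enzyme, at −0.81, or −0.17 and not called after TMM scaling. Cytosolic ERAD factors, which extract and deliver substrates from outside the membrane, gave 0 higher and 8 lower of 8 tested (median −0.75), against 1 higher and 2 lower after TMM scaling (−0.11). The median of all genes was close to this, at −0.68 by library totals and −0.03 after TMM scaling. Of 8 tested regulators of the unfolded protein response 7 were higher and 1 lower, or 0 lower after TMM scaling. XBP1, whose mRNA is spliced at the ER membrane, was at 0.95 and the kinase ERN1 at 2.06, while the pseudokinase TRIB3 was at −0.81 (−0.16 after TMM scaling).

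**Figure D3:**
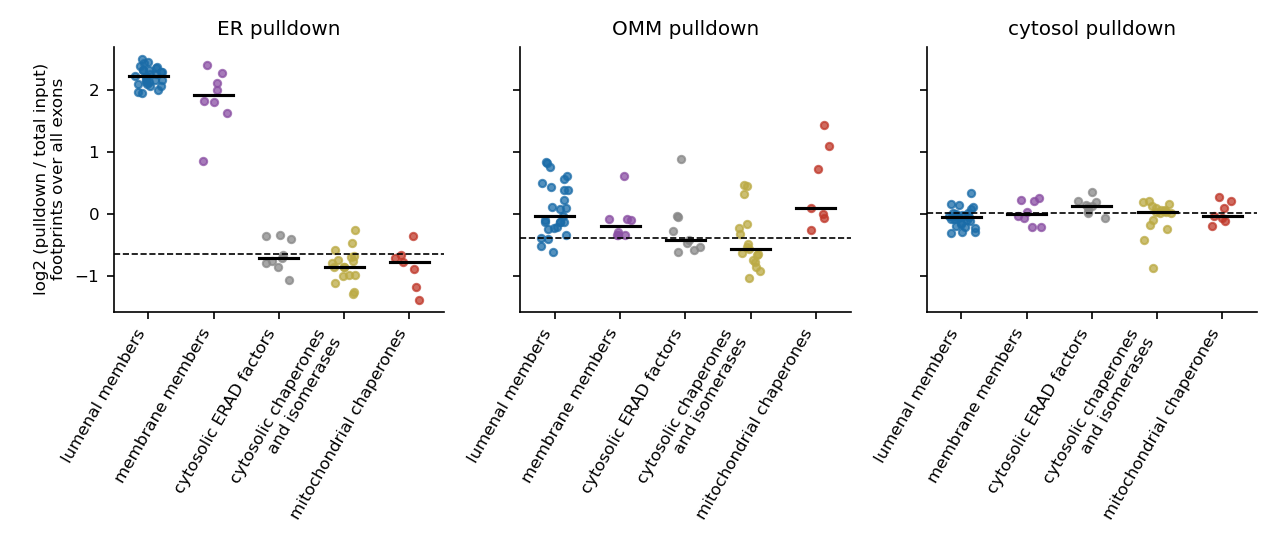
Log2 ratio of pulldown to total input over all exons (y axis) at the ER, OMM and cytosol for members and comparison lists (x axis); each point is 1 gene, solid bars are list medians and the dashed line is the median of all genes tested. At the ER the lumenal (median 2.23) and membrane members (1.92) stand above 3 lists of cytosolic and mitochondrial proteins, which lie below 0 on the library-total scale, and at the other locations the lists overlap.

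The cytosolic ligase tested whether members were enriched without a targeting domain. Of 34 members tested 1 was higher and 1 lower in the cytosol pulldown, with shares of 2.05% and 5.97% among all 7173 genes. HSP90B1 was higher over coding positions (lysates 1.05 and 0.23, fit 0.71 ± 0.18, adjusted p = 0.021 in edgeR) and not called over all exons (−0.02 and 0.00, fit −0.01). Its 1.05 came from the lysate whose total input and pulldown were recorded under different raw-data folders, the only such lysate. Such a folder is taken here as a sequencing run, which no sample title states, and the part of the runs was not tested. CANX was lower over coding positions (−0.99 and −0.78, fit −0.89 ± 0.09, adjusted p = 2.6e-06 in edgeR) and at −0.16 and −0.25 over all exons (−0.20 ± 0.08, adjusted p = 0.11 in edgeR). Over all exons the calls were different genes: SDF2L1 was higher (0.34 ± 0.10) and ERO1A (−0.31) and UGGT1 (−0.29) were lower (3.54% and 6.81% of genes). Leaving out either cytosol replicate changed the count of called members.

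The difference between locations was tested directly in the same fit. ER enrichment exceeded cytosol enrichment for 31 of 32 members (median over all 6819 genes −0.66; 19.6% of them higher), with HSP90B1 not called at 0.42 ± 0.26, and for 35 of 35 over all exons (20.7% of genes higher), where HSP90B1 was at 2.44 ± 0.12. The largest differences over coding positions belonged to PRKCSH (2.54) and HSPA5 (2.53), and HERPUD1 was at 1.05 ± 0.20. ER enrichment exceeded OMM enrichment for 27 of 31 members (18.5% of 6691 genes higher); the values of those not called were −0.14 for ERP29, −0.07 for HSP90B1, 0.14 for MOGS and 0.34 for P4HB. Over all exons all 35 members were called, those same genes at 1.61, 2.57, 2.45 and 1.72, against 20.9% of all genes.

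At the OMM the members split. Of 31 tested 14 were higher and 6 lower in the pulldown (median 0.15; 17.0% of 6742 genes were higher and 45.9% lower), and over all exons 11 were higher and 9 lower of 35 (median −0.09; background 16.5% and 49.0%). The median of all genes lay at −0.38 by library totals and −0.06 after TMM scaling, under which 17 members were higher and 0 lower (25.8% and 24.4% of genes), so the lower calls rest on the scale. The coding count of called members fell when either replicate of the mito line, whose pulldowns were the shallowest libraries, was left out. The shares of all genes under those settings are not given, so the fall is not set against a background.

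The members most enriched at the OMM by both counts were small secretory proteins. Among all genes with proteins under 300 residues, 779 of 1774 were called higher there over coding positions and 926 of 2121 over all exons. PPIB measured 0.85 and 1.09 over coding positions (0.97 ± 0.09) and 0.63 and 0.88 over all exons (0.76 ± 0.09). MANF measured 0.89 and 1.24 (1.08 ± 0.11) and 0.82 ± 0.10 over all exons, and SDF2L1, a partner of the J-domain cochaperones, was at 0.84 ± 0.11 by either count. ERP29 measured 0.66 and 1.20 over coding positions (0.96 ± 0.23) and 0.43 and 0.78 over all exons (0.62 ± 0.11). DERL2 was higher over all exons at 0.55 and 0.68 (0.62 ± 0.13) and did not reach the minimum over coding positions. CALR was higher by both counts (0.59 ± 0.09 and 0.56 ± 0.09), as was P4HB (0.70 and 0.50). These values were all smaller than the ER values of the same genes by the test above, except P4HB and ERP29 over coding positions.

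Several coding values at the OMM did not hold over all exons. HSP90B1 measured 1.53 and 0.80 over coding positions (1.20 ± 0.22) and −0.13 and −0.13 over all exons. MOGS went from 0.98 ± 0.23 to −0.34 ± 0.12 and CANX from 0.45 ± 0.10 to −0.29 ± 0.08, both called, but in opposite directions, by the 2 counts. HYOU1 went from 0.37 to −0.04. In each of these under 50% of the coding length was counted.

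Lower at the OMM by library totals were EDEM3 (lysates −0.41 and −0.67, fit −0.57 ± 0.16, adjusted p = 0.0039 in edgeR), UGGT2 (−0.43), DNAJC3 (−0.34), ERO1A (−0.33), SEL1L (−0.32) and HSPA5 (−0.25 and −0.26, fit −0.26 ± 0.10). After TMM scaling HSPA5 was at 0.06 and SEL1L at 0.00, and none of the 6 was called. By library totals the median of all genes was itself −0.38, and 56.9% of genes tested lay below HSPA5, so it stood near the middle of all genes.

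Against the cytosol lysates, OMM enrichment was higher for 11 and lower for 1 of 31 members (16.5% and 39.7% of 6482 genes). The calls with the smallest adjusted p were CANX (1.34), PPIB (1.01), P4HB (0.96), MANF (0.93), CALR (0.66) and OS9 (0.73), and the gene called lower was EDEM3 at −0.47 ± 0.19, which was at −0.15 and not called after TMM scaling. Over all exons CANX was at −0.09 and not called, while PPIB (0.79), P4HB (0.42), MANF (0.68), CALR (0.59) and OS9 (0.58) stayed called. The count of called members fell without replicate 2 of the mito line, a setting for which no share of all genes is given. Among mitochondrial relatives of the members, TRAP1 was at 1.78 ± 0.10 at the OMM over coding positions and HSPA9 at 0.73 ± 0.08 over all exons, both called higher. PPIF, the mitochondrial cyclophilin, was at −0.10 and −0.07 by the 2 counts, not called, and DNAJA3, a mitochondrial J-domain protein, was at −0.30, not called, and at −0.26 ± 0.10, called lower, over all exons.

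RNA-seq of OMM pulldowns from wild-type cells gave a similar split for whole transcripts, with 38 of 39 members tested. There were 14 members higher and 11 lower (median 0.00; 20.2% of 13856 genes were higher and 45.6% lower). The median of all genes lay at −0.28 by library totals and 0.01 after TMM scaling, under which 19 members were higher and 6 lower (31.0% and 27.8% of genes). The count of called members fell without replicate 1 of the wild type, again with no share of all genes beside it. FKBP2, an immunophilin, had too few reads to be tested, and DNAJB11, TXNDC5 and CNPY2, absent from the footprint values, could be measured here.

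The highest values belonged to members of the HSP70 and HSP90 system and to isomerases, all with proteins under 300 residues except CRELD2 (353 residues). SDF2L1 measured 1.45 and 1.54 (1.5 ± 0.13), MANF 1.36 and 1.30 (1.33 ± 0.10), CNPY2, a saposin-like protein of the lumen, 1.08 and 1.09 (1.08 ± 0.09), CRELD2 0.95 and 1.02, PPIB 1.08 and 0.87, and ERP29 1.07 and 0.82. Each lysate of these genes was above 0.8. The lowest were EDEM3 at −0.98 and −1.02 (−1.0 ± 0.08), SEL1L at −0.80 and −1.01 (−0.91 ± 0.09), ERO1B at −0.74 and −0.78 (−0.76 ± 0.09), UGGT1 (−0.68), UGGT2 (−0.64) and EDEM1 (−0.56). All 6 were also called lower after TMM scaling, EDEM3 at −0.70.

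Protein length ordered these values. Of 8 members under 300 residues 6 were higher and 0 lower (median 0.96), of 16 members with 300 to 600 residues 8 were higher and 4 lower (0.26), and of 14 above 600 residues 0 were higher and 7 lower (−0.31). All genes followed the same order, with medians of 0.34, −0.23 and −0.58, and the median of the members lay above that of all genes in each class. Calls over all genes also followed length. In the shortest class 1568 of 3079 genes were higher and 566 lower, in the middle class 806 and 2002 of 4578. In the longest class 153 were higher and 3124 lower of 4434 genes. Over genes, Pearson's r between log2 protein length and enrichment was −0.70 for 38 members and −0.57 for 12091 genes (Spearman's rho −0.66 and −0.56), a description over genes measured in the same libraries. At the ER r was 0.32 over 35 members with exon counts, against −0.13 over 8878 genes (rho 0.37 and −0.36). With the cytosol ligase it was −0.54 over 35 members and 0.11 over 8836 genes.

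**Figure D4:**
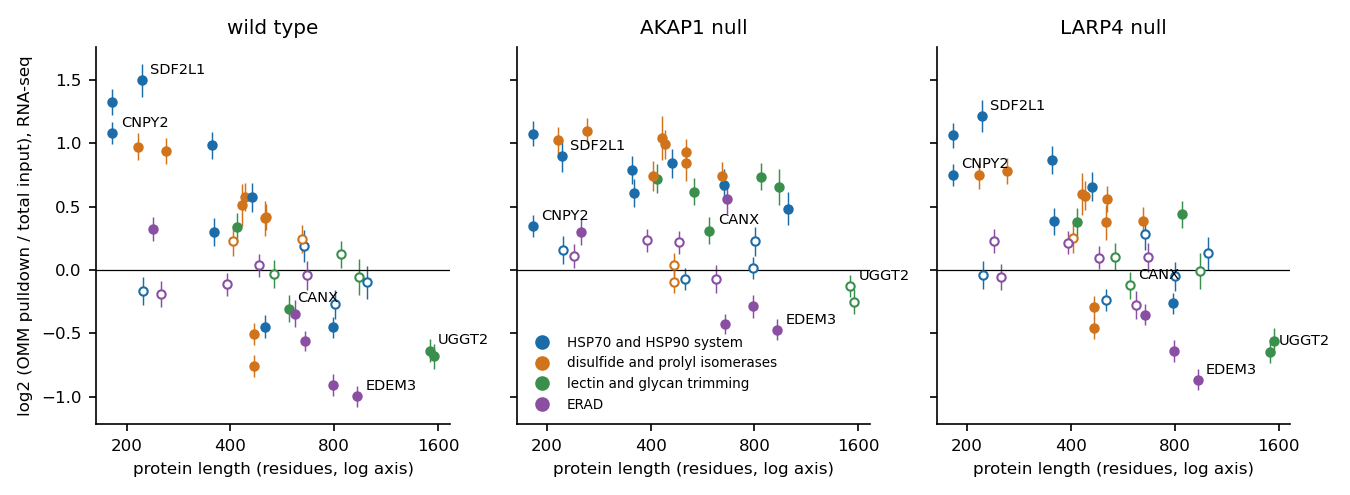
Log2 ratio of OMM pulldown to total input in RNA-seq (y axis, fit with standard error) against protein length (x axis, residues, log scale) for 38 members in wild-type, AKAP1 null and LARP4 null cells, coloured by role, with filled points called and open points not called. In wild type values fall from 1.5 for SDF2L1 to −1.0 for EDEM3, and in AKAP1 null cells SDF2L1 and CNPY2 are lower and EDEM3 and UGGT2 higher than in wild type.

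Footprints over all exons and RNA-seq at the OMM ranked members alike, with r 0.86 over 35 genes, against 0.80 over 8418 genes; the libraries differ but share the ligase and the cell line. The lysate made without CHX, a single pair with no test, gave 1.15 for SDF2L1, 1.35 for MANF, 1.14 for CNPY2, −0.82 for EDEM3 and −0.68 for SEL1L, each with the sign it had in wild type. By the study's methods labelling was also shorter without CHX. The title of this lysate names no genotype or guide RNA, so drug, labelling time and cell line cannot be told apart. HYOU1 was at 0.90 without CHX against 0.14 and −0.33 in the wild-type lysates with CHX.

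In AKAP1 null cells 23 of 38 members were higher and 3 lower in the OMM pulldown (13.9% and 28.1% of genes), and in LARP4 null cells 15 were higher and 8 lower (22.8% of genes were higher and 52.8% were called in either direction). AKAP1 is an OMM anchor protein that binds RNA, and LARP4 is an RNA-binding protein of the La-related family. Both null lines are compared with the same wild-type libraries.

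The AKAP1 null enrichment minus the wild-type enrichment was called for 13 members, 12 higher and 1 lower (median 0.45; 6.52% of genes were higher and 7.96% lower). The median of all genes was 0.19 by library totals and 0.01 after TMM scaling, and TMM scaling left 1 member higher, ERO1B (0.49), and 2 lower, CNPY2 and SDF2L1 (2.06% and 10.3% of genes). The count was 4 with DESeq2, and the calls were lost when any single wild-type or AKAP1 null replicate was left out. Shares of all genes under these settings are not given, so the changes are not set against a background. The calls therefore need all 4 lysates and, for most members, the library-total scale.

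CNPY2 had the smallest adjusted p and was the member called lower: its lysates were 0.37 and 0.32 in AKAP1 null against 1.08 and 1.09 in wild type, with no overlap (difference −0.74 ± 0.12, adjusted p = 0.0064 in edgeR; −0.91 after TMM scaling). SDF2L1 measured 0.76 and 1.05 against 1.45 and 1.54 (−0.60 ± 0.18, adjusted p = 0.06 in edgeR; −0.77 and called after TMM scaling). Among members called higher, ERO1B was at −0.12 and −0.07 against −0.74 and −0.78 (0.67 ± 0.12, adjusted p = 0.0096 in edgeR), and SEL1L at −0.31 and −0.26 against −0.80 and −1.01 (0.62 ± 0.13). EDEM3 (0.53), ERO1A (0.55) and PRKCSH (0.65) came next by adjusted p.

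The difference also followed length. The 8 members under 300 residues had a median difference of −0.08, the 16 of middle length 0.43 and the 14 above 600 residues 0.50, while all genes had −0.17, 0.21 and 0.31. By library totals the range of the shortest class spanned 0 most widely, from −0.74 to 0.49. The middle class ran from −0.19 to 0.67, and the 14 longest all lay above 0, from 0.13 to 0.71. After TMM scaling the ranges were −0.91 to 0.31, −0.37 to 0.49 and −0.04 to 0.54 from the shortest to the longest class.

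For LARP4 null against wild type 0 of 38 members and 0 of 13856 genes were called (0.0%) in edgeR, with 3 members and 2270 genes at an unadjusted p below 0.05; DESeq2 called 0 members, with 2 genes higher and 454 lower. CNPY2 measured 0.86 and 0.65 against 1.08 and 1.09 (−0.33 ± 0.12), and ERO1B −0.42 and −0.49 against −0.74 and −0.78 (0.30 ± 0.12), neither called. Leaving out LARP4 null replicate 1 changed the count of called members.

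The levels of the members in total inputs span a wide range. By deposited coding RPKM, reads scaled by counted coding length and by library depth, PPIB had the highest value, at 956 to 1371 (median 1070) over the 6 total inputs. It was followed by CALR at 776 to 1082 and HSPA5 at 596 to 928, and the ranges of these neighbours overlap. This ranks footprint density on counted positions and not total translation. The lowest measured were UGGT2 at 5.90 to 9.44, ERO1B at 4.78 to 15 and EDEM1 at 5.01 to 16.1, whose ranges overlap each other. For members with few counted positions the RPKM describes only those positions, as for HSP90B1 at 13.7 to 49.5. By RNA-seq TPM over the 6 total inputs of wild-type and null cells CALR was highest (845 to 1101), then CANX (433 to 545), PDIA4 (242 to 517) and HSPA5 (321 to 432), and the lowest were SIL1 (10.4 to 16.7), TXNDC5 (5.73 to 14) and FKBP2 (0.507 to 1.21). TXNDC5 and FKBP2 share footprint entries with neighbouring genes, and whether such overlap also lowered their RNA-seq counts was not tested.

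**Figure D5:**
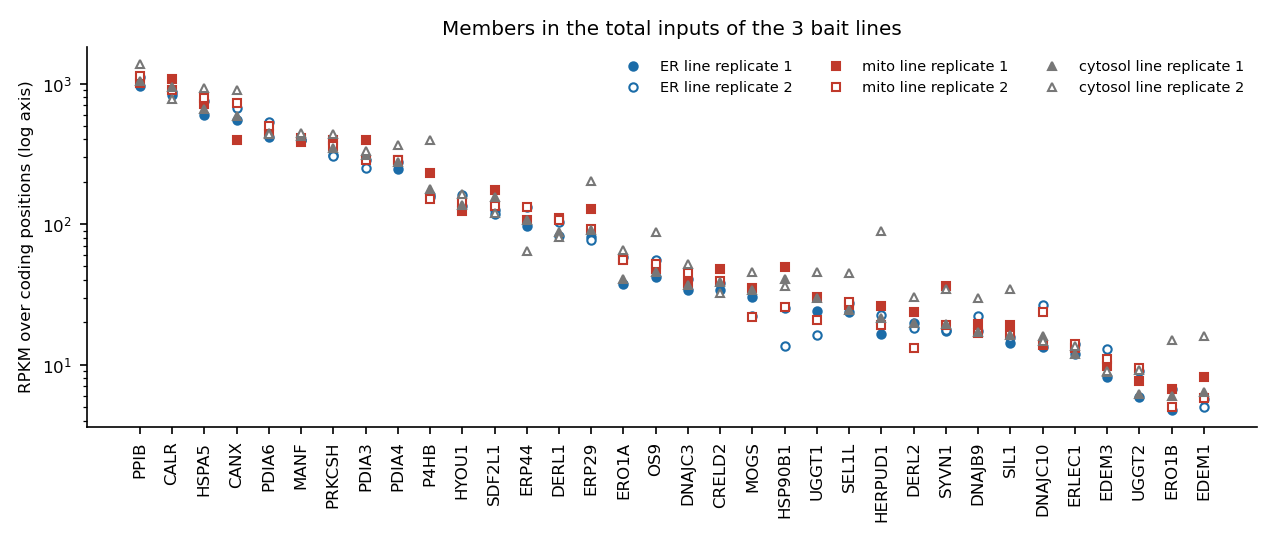
Level of each member in the 6 total inputs (y axis, coding RPKM, log scale), ordered by median (x axis), with colour for the bait line and open or filled symbols for replicates. Levels run from about PPIB, at 956 to 1371, down to EDEM1, at 5.01 to 16.1, and the open grey triangle of cytosol replicate 2 stands above the other libraries for HERPUD1, P4HB, ERP29, ERO1B, EDEM1 and SIL1.

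Whether the baits changed the members was tested between total inputs, which share groups across the 3 comparisons. No member of 34 and none of 7971 genes was called between ER and cytosol, mito and cytosol or ER and mito lines in edgeR (0.0%), and DESeq2 called 0 members as well. At an unadjusted p below 0.05 there were 1, 1 and 0 members and 311, 350 and 21 genes. The member was HERPUD1, at −1.37 ± 0.49 for ER against cytosol and −1.24 ± 0.50 for mito against cytosol. Its RPKM was 16.6 and 22.5 in the ER line, 26.3 and 19.3 in the mito line and 21.3 in cytosol replicate 1, but 88.8 in cytosol replicate 2.

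Cytosol replicate 2 had a run of its own, as inferred from the raw-data folders. Its total input differed from that of cytosol replicate 1 by a median absolute deviation of 0.42 on the log2 scale over genes. The value was 0.09 between ER replicate 1 and cytosol replicate 1, which shared a run. Replicates of the ER line differed by 0.21 and those of the mito line by 0.27, each pair also spread over 2 runs. Members were higher in cytosol replicate 2 than in replicate 1 by a median of 0.41, against 0.13 for all genes, HERPUD1 by 2.02, and P4HB was at 398 RPKM against 152 to 230 in the other total inputs. Without cytosol replicate 1, which leaves replicate 2 as the lone cytosol sample assumed to vary like the other groups, 10 members were called between ER and cytosol (1 higher, 9 lower; 10.8% and 12.1% of 7646 genes) and 9 between mito and cytosol (1 higher, 8 lower; 10.9% and 11.4% of genes). Between total inputs of the same run, members in ER replicate 1 lay at a median of −0.06 against cytosol replicate 1. Those in ER replicate 2 lay at −0.07 against mito replicate 2. HSP90B1 was lowest in both, at −0.61 and −0.93, over its few counted coding positions. Over all exons, in fits of both replicates, HSP90B1 was at 0.04 ± 0.27 for ER against cytosol and 0.10 ± 0.27 for ER against mito, not called.

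In RNA-seq total inputs 0 of 38 members and 0 of 13977 genes (0.0%) were called between AKAP1 null and wild type in edgeR, with 0 members and 489 genes at an unadjusted p below 0.05. Between LARP4 null and wild type 0 members and 2 genes (0.0143%) were called, with 0 members and 509 genes at an unadjusted p below 0.05, and DESeq2 called 0 members in either. PDIA4 was at 242 and 410 TPM in LARP4 null against 517 and 394 in wild type (−0.49 ± 0.22, not called). In the single total input made without CHX, CALR was at 578 TPM against 845 to 1101 in the 6 others, HYOU1 at 68.8 against 133.3 to 183 and SDF2L1 at 32.0 against 55.0 to 80.5, while HERPUD1 was at 67.5 against 33.5 to 44.4; with 1 library these are values without a test.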

How the data were processed

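Ribosome profiling and RNA-seq files were used as deposited. Per the paper's methods, the authors removed rRNA and tRNA reads with Bowtie, aligned footprints to GRCh38 with TopHat and counted unique alignments with plastid; the deposited values are estimated counts over coding positions and exons, and RPKM. RNA-seq reads were aligned with STAR and counted with featureCounts; the authors' deposited read count per gene was used. The deposited FPKM column was 10 times the FPKM recomputed from the counts, so it is treated as a score and not used. RNA-seq TPM was computed from counts.

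Estimated counts were rounded and tested with edgeR 4.0.16 (limma 3.58.1, R 4.3.3), quasi-likelihood, with the lysate as a block, library totals as scale and Benjamini-Hochberg adjustment over all genes tested. Tested genes had at least 64 footprints in both total inputs, or a mean RNA-seq count of at least 64. Total inputs were compared after TMM scaling. Per-lysate RNA-seq ratios used a pseudocount of 0.5. DESeq2 1.42.0, TMM, no block, a minimum of 10, left-out replicates and exon counts (added after seeing the data) were alternatives. The scripts were tested on simulated data. Deviations of pulldown and total from the same lysate correlated at 0.74 (ER), 0.58 (mito), 0.88 (cytosol), 0.87 (wild type), 0.62 (AKAP1 null) and 0.68 (LARP4 null), and the methods state that both come from 1 lysate.

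Sequence features came from the GENCODE 44 translation. Promoters came from RefSeq, and 36 of 39 members matched. Named with values are the members with the 3 highest and 3 lowest ER effects, HSPA5, HSP90B1, CALR, CANX, P4HB, all membrane members, calls against the majority (at most 6 by adjusted p), the 3 highest and lowest levels, and cytosolic counterparts; further members were named after their values were seen. Members and lists were chosen with earlier results of these data known.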

Additional observations from a re-analysis of the deposited data

Results flagged for a closer look

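Effects of the same contrast that differed between groups by a direct test were marked for a closer look. Between locations in ribosome profiling, enrichment differed between ER and cytosol for 31 members, between ER and OMM for 27 and between OMM and cytosol for 12. Between AKAP1 null and wild-type cells OMM enrichment in RNA-seq differed for 13 members, and CNPY2 was the member with the smallest adjusted p, at −0.74 on the log2 scale. The values behind these counts are given above with the settings that change them. No group held 4 or more samples, so single samples were not tested for standing apart.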

How the results depend on the processing

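Without the replicate block, and so without the pairing of pulldown and total in a lysate, the counts of called members fell to 2 at the OMM, 0 in the cytosol, 0 for OMM minus cytosol, 14 in wild-type RNA-seq and 0 for AKAP1 null minus wild type, and to 28 at the ER. DESeq2 gave 1 in the cytosol and 4 for AKAP1 null minus wild type, and TMM scaling gave 3 for the latter. Leaving out 1 replicate gave 31 to 33 at the ER, 8 to 12 at the OMM, 4 to 6 in the cytosol, 31 to 33 for ER minus cytosol, 24 to 26 for ER minus OMM, 6 to 15 for OMM minus cytosol, 16 to 18 in wild-type RNA-seq, 0 to 0 for AKAP1 null and 0 to 4 for LARP4 null minus wild type, 0 to 10 between ER and cytosol total inputs and 0 to 9 between mito and cytosol total inputs. The ER median of lumenal members was 2.36 from RPKM ratios and 2.73 after TMM scaling, and that of membrane members 1.43, 1.77 and, over all exons, 1.92. Direction turned over all exons at the OMM for HYOU1 (−0.0391), HSP90B1 (−0.13), MOGS (−0.34) and CANX (−0.29), in the cytosol for HSP90B1 (−0.0084), and for OMM minus cytosol for MOGS (−0.31) and CANX (−0.0881). At the OMM it turned with DESeq2 for DNAJC3 (0.0113), SEL1L (0.0341), ERO1A (0.0183) and HSPA5 (0.0934), and after TMM scaling for SEL1L (0.0007) and HSPA5 (0.0631). The cause of these changes was not tested. Counts of called members in this paragraph come without the shares of all genes under the same settings, so they are not set against a background. The 2 mito pulldowns are the shallowest libraries, and 4 members without an entry of their own have no footprint value.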
